A study of Mus musculus with 36 samples.

Results

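The genes described here are 10 members of the Wnt pathway, most of them feedback regulators or secreted antagonists: Nkd1, Nkd2, Axin2, Lef1, Tcf7, Sfrp1, Sfrp2, Dkk2, Dkk3 and Wnt5a. They were chosen by name with results of these data already known, so their levels and fold changes in flown cells against cells kept on land count as the values they were selected on, and they are 10 of the 49315 genes counted. Of the 10, 7 passed the filter on low counts, and Nkd1, Tcf7 and Dkk2 did not. RNA came from C2C12 myoblasts, a long-established mouse line of muscle precursor cells that were kept proliferating, seeded at 1500 cells per cm2 and grown in sealed experiment units. The 6 groups of 3 libraries were cells in space without gravity, in space with gravity and on land, each left untreated or given nanoceria (cerium oxide nanoparticles coated with serum, dispersed at 100 µg/ml in the medium reservoir). "With gravity" and "without gravity" are the terms of the labels for the 2 flown regimes. All cells were fixed in RNAlater, and the flown units received their last fluid exchange on day 9 after launch. The land cells came from a repeat of the experiment run later in the same hardware, so the effect of flight and that of the separate run cannot be told apart.

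Wnt proteins are secreted ligands that bind Frizzled receptors together with LRP co-receptors. In the canonical branch the signal keeps beta-catenin from being degraded, and beta-catenin then joins TCF and LEF proteins on DNA to switch on target genes. Several targets feed back on the pathway: Axin2 rebuilds the complex that degrades beta-catenin, and the Naked cuticle proteins Nkd1 and Nkd2 bind Dishevelled inside the cell. SFRP proteins bind Wnt ligands outside the cell, and Dickkopf proteins such as Dkk2 act on the LRP co-receptors. In muscle, Wnt signals are known to act on the commitment and differentiation of precursor cells.

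Levels are given as CPM, read counts relative to library size after scaling of libraries by the trimmed mean of M values. Of the 18 libraries, 17 held between 2986628 and 11378178 counts, where 3 counts, taken as the floor of detection, correspond to between 0.193 and 1.11 CPM. The remaining library, replicate 3 of space with gravity and nanoceria, held 23858 counts, where 3 counts are 35.7 CPM, so a listed 0 there says nothing of these genes. A set of 6 abundant genes took 49.6% to 76.3% of the counts on land and 23.8% to 70.3% in space. The myoblast marker Myf5 was at 20.0 to 163 CPM in all 17 deeper libraries, while the myoblast factor Myod1 had no count in 8 of them and the differentiation factor Myog had none in 12. The cycling marker Mki67 lay between 1.43 and 66.4 CPM. Floors cover counting error only. Values of a group are listed in the order of replicates 1 to 3, a numbering that pairs no libraries.

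The promoters of the members with the most counts are shown because Nkd2, Sfrp2 and Lef1 had lower fitted levels in flown cells while Axin2 had a higher one. Each window runs from 250 bases before to 50 bases after a RefSeq start site on GRCm38.p6, 5′ to 3′ on the strand of the gene, and capitals mark CTTTGA, the core of the TCF and LEF motif, or its reverse complement TCAAAG.
Nkd2, chr13:73847582-73847881, minus strand: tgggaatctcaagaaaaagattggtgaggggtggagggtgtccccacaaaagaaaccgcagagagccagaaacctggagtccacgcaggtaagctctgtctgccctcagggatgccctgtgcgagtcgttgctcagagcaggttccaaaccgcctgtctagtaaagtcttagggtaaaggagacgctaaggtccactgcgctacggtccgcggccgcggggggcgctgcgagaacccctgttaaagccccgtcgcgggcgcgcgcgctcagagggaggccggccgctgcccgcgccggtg
Sfrp2, chr3:83766071-83766370, plus strand: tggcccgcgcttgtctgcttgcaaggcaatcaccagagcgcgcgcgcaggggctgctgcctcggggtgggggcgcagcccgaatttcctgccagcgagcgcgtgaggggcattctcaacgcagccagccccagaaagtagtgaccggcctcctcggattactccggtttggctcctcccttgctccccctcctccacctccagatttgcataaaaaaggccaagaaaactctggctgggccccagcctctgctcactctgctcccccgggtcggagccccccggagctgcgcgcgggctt
Axin2, chr11:108920099-108920398, plus strand: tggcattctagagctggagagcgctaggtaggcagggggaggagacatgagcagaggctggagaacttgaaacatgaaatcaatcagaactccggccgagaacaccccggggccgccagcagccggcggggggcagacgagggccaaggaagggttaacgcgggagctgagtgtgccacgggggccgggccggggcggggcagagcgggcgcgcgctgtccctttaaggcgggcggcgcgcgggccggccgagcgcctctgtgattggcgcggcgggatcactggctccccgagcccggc
Lef1, start site inside the gene, chr3:131156044-131156343, plus strand: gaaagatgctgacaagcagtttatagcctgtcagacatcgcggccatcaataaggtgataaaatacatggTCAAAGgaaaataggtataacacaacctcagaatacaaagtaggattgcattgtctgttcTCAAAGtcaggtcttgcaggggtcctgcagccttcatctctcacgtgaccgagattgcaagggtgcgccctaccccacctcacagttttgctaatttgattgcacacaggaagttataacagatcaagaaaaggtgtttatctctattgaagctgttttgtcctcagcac
Both matches of CTTTGA in the Lef1 window lie on the minus strand, and the other 3 windows printed hold none. This internal window is 1 of 4 for Lef1 and is shown for its matches, and the 3 nearer the 5′ end of the gene hold no CTTTGA. RefSeq windows were found for 7 of the 10 members, 11 windows in all, and 1 of the 11 held CTTTGA on either strand, against 16.0% of the 32851 windows in the table. CAGCTG, a form of the E-box bound by myogenic factors and its own reverse complement, stood in 3 of the 11 windows, those of Nkd1, Tcf7 and another Lef1 start, against 16.3% of all windows. A match is only a run of letters, and its absence says only that these letters are not in the window.

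Of the 3 feedback regulators, Nkd2 and Axin2 could be measured and Nkd1 could not. Nkd2 (ENSMUSG00000021567, GRCm38 chromosome 13, 73818534 to 73847631, minus strand), a Dishevelled-binding inhibitor, was at 3.93, 2.56 and 20.7 CPM in untreated land cells and at 2.22, 1.00 and 162 CPM in land cells with nanoceria. Flown cells with gravity had 0.193, 0.172 and 0.659 CPM untreated and 0.0792, 0 and 0 CPM with nanoceria, the last 0 being the smallest library. Flown cells without gravity had 1.00, 0.671 and 1.25 CPM untreated and 1.02, 1.86 and 0.169 CPM with nanoceria. Every land library thus stood above every library of space with gravity, where 3.24% of all genes tested were lower without overlap. The ranges of land and of space without gravity overlapped. The separation from space with gravity is narrow in counts, with 5 in the lowest land library and 4 in the highest library of space with gravity, whose others held 0 to 3, so the size of the fitted difference is uncertain. A single land library, replicate 3 with nanoceria, held 499 of the 650 Nkd2 counts, or 76.8%. The fitted log2 fold change was -7.19 ± 1.37 (SE) in space with gravity against land and -4.51 ± 1.03 in space without gravity against land. No test is attached to the members in either comparison with land, since they were chosen with those results known.

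Nkd1 (ENSMUSG00000031661, chromosome 8, 88521354 to 88594884, plus strand), the paralog of Nkd2, was all but uncounted, with 13 counts in the 18 libraries. Of these, 10 were in replicate 1 of untreated space without gravity, and 14 libraries held none. No level of Nkd1 can be compared at this depth.

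Axin2 (ENSMUSG00000000142, chromosome 11, 108920349 to 108950783, plus strand), a scaffold of the degradation complex and a direct target of beta-catenin, was the tested member with a positive fitted value in both comparisons with land. It was at 0, 2.30 and 0.329 CPM in untreated land cells, on 0, 9 and 1 counts, and at 3.70, 3.41 and 4.56 CPM in land cells with nanoceria. The treated land libraries all lay above the untreated ones, but the share of all genes that separate in this way was not computed. With gravity in space it was at 1.16, 2.06 and 10.9 CPM untreated and at 2.77, 9.56 and 0 CPM with nanoceria. Without gravity it was at 2.61, 3.36 and 3.21 CPM untreated and at 3.20, 3.71 and 1.18 CPM with nanoceria. The highest group means were those of untreated space with gravity (4.70 ± 5.36 CPM, SD, n = 3) and of space with gravity and nanoceria (4.11 ± 4.92 with the smallest library, 6.17 without it), whose order depends on that library. The lowest was untreated land (0.877 ± 1.24). Below the 2 highest groups, 2 steps between neighbours exceeded the larger of their SDs. These were the step from land with nanoceria (3.89 ± 0.598 CPM) to untreated space without gravity (3.06 ± 0.396) and the step from space without gravity and nanoceria (2.70 ± 1.34) to untreated land. The fitted change was 1.48 ± 0.73 in space with gravity and 0.65 ± 0.72 in space without gravity, each against land, and the regimes overlapped in both. Single libraries moved these values: the first became 0.74 without replicate 3 of untreated space with gravity, 0.94 without replicate 2 of space with gravity and nanoceria, and 2.86 without replicate 2 of untreated land. The second became 0.32 without replicate 1 of untreated land and 2.02 without its replicate 2.

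**Figure D1:**
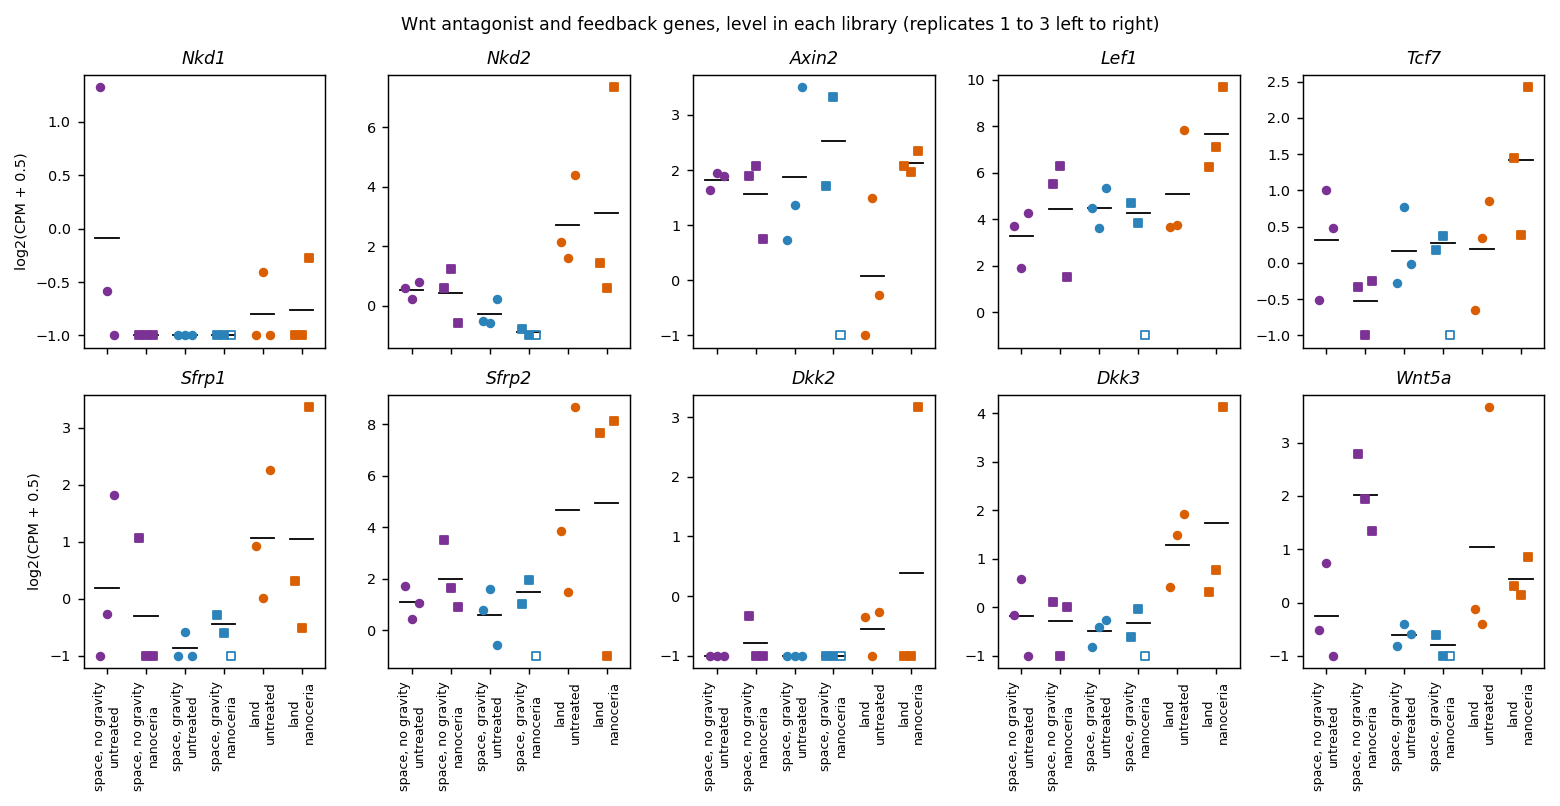
Levels of the 10 members in the 18 libraries, as log2(CPM + 0.5) by group, with a black bar at the mean of the log2 values without the smallest library, which is drawn as an open square. Nkd2, Lef1 and Sfrp2 reach their highest values in land libraries numbered 3, at 162, 823 and 405 CPM, whereas the highest Axin2 value, 10.9 CPM, is in space with gravity.

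Of the DNA-binding partners of beta-catenin, Lef1 (ENSMUSG00000027985, chromosome 3, 131110471 to 131224356, plus strand) had the most counts of any member, 6085 in all. It was at 12.2, 13.0 and 228 CPM in untreated land cells and at 74.8, 136 and 823 CPM in land cells with nanoceria. Flown cells with gravity had 22.0, 11.8 and 40.2 CPM untreated and 25.4, 13.9 and 0 CPM with nanoceria. Flown cells without gravity had 12.4, 3.19 and 18.5 CPM untreated and 44.7, 76.8 and 2.37 CPM with nanoceria. The first 2 untreated land libraries lay inside the range of the flown ones, and 75.9% of the land counts came from the 2 land libraries numbered 3. Group means ran from 345 ± 415 CPM (SD, n = 3) in land cells with nanoceria down to 11.4 ± 7.73 in untreated space without gravity, and no step between neighbouring groups exceeded the larger of their SDs. The mean of space with gravity and nanoceria was 13.1 CPM with the smallest library and 19.6 CPM without it. The fitted change against land was -3.07 ± 0.92 in space with gravity and -2.97 ± 0.90 in space without gravity.

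Tcf7 (ENSMUSG00000000782, chromosome 11, 52252371 to 52283014, minus strand), the relative of Lef1, had 87 counts in all and did not pass the filter. Its highest level was 4.88 CPM, in replicate 3 of land with nanoceria, and in space it reached at most 1.51 CPM. Most of its values were near the floor.

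Among the secreted antagonists, Sfrp2 (ENSMUSG00000027996, chromosome 3, 83766321 to 83774316, plus strand), which binds Wnt ligands, had the widest spread. It was at 14.0, 2.30 and 405 CPM in untreated land cells and at 199.9, 0 and 280 CPM in land cells with nanoceria. With gravity in space it was at 1.22, 2.49 and 0.165 CPM untreated and at 1.50, 3.35 and 0 CPM with nanoceria. Without gravity it was at 2.81, 0.839 and 1.60 CPM untreated and at 10.8, 2.60 and 1.35 CPM with nanoceria. Land libraries held both extremes: 4 of the 6 stood above every flown library, while replicate 2 with nanoceria had no count. The fitted change against land was -6.40 ± 1.42 in space with gravity and -5.65 ± 1.31 in space without gravity.

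Sfrp1 (ENSMUSG00000031548, chromosome 8, 23411502 to 23449632, plus strand), of the same family, was counted 95 times in all, with no count in 6 libraries. It was at 1.40, 0.511 and 4.27 CPM in untreated land cells, at 0.740, 0.200 and 9.76 CPM in land cells with nanoceria, and at no more than 0.317 CPM in space with gravity. Flown cells without gravity had 0, 0.336 and 3.03 CPM untreated and 1.60, 0 and 0 CPM with nanoceria. The fitted change against land was -4.19 ± 1.38 in space with gravity and -1.67 ± 1.08 in space without gravity, with overlapping ranges in both. Without replicate 1 of space without gravity and nanoceria the second value was -4.09, and without replicate 3 of land with nanoceria it was -0.19.

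Dkk3 (ENSMUSG00000030772, chromosome 7, 112116017 to 112159057, minus strand), a secreted protein of the Dickkopf family that is the most divergent of its members, was at 0.843, 2.30 and 3.29 CPM in untreated land cells and at 0.740, 1.20 and 16.9 CPM in land cells with nanoceria. In space with gravity it was at 0.0645, 0.258 and 0.329 CPM untreated and at 0.158, 0.478 and 0 CPM with nanoceria. Without gravity it reached at most 1.01 CPM. Land and space with gravity did not overlap, although the values with gravity rest on 0 to 3 counts per library. Of all genes tested, 3.24% were lower without overlap in this comparison. Dkk3 did not pass the filter without replicate 3 of both land groups, so it was kept through libraries where it was high. Its separation and fitted values follow in part from that filter. The fitted change against land was -3.78 ± 0.99 in space with gravity and -2.98 ± 0.88 in space without gravity.

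Dkk2 (ENSMUSG00000028031, chromosome 3, 132085292 to 132180304, plus strand), an antagonist acting on LRP co-receptors, had 31 counts in all, of which 26 were in replicate 3 of land with nanoceria, at 8.46 CPM. In 14 libraries it had none, and it did not pass the filter. Dkk2 lies 861 kb from Lef1 on chromosome 3, with 12 annotated genes between them.

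Wnt5a (ENSMUSG00000021994, chromosome 14, 28504750 to 28527447, plus strand) is the only ligand among the members and is known mainly for noncanonical signals. It was at 0.421, 0.256 and 12.2 CPM in untreated land cells and at 0.740, 0.601 and 1.30 CPM in land cells with nanoceria. In space with gravity it was at 0.0645, 0.258 and 0.165 CPM untreated and at 0.158, 0 and 0 CPM with nanoceria. In space without gravity it was at 0.201, 1.17 and 0 CPM untreated and at 6.41, 3.34 and 2.03 CPM with nanoceria. The 3 treated libraries of space without gravity thus lay above the 3 untreated ones, but the share of all genes that separate in this way was not computed. Replicate 3 of untreated land held 37 of the 50 land counts. The fitted change against land was -3.75 ± 1.13 in space with gravity and -0.47 ± 0.89 in space without gravity.

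Per kilobase of exon, which allows genes to be set side by side, the mean level in land cells with nanoceria was 74.2 CPM per kb for Sfrp2, 39.2 for Lef1 and 11.7 for Nkd2. In untreated space with gravity the same genes were at 0.601, 2.81 and 0.0722 CPM per kb, and Axin2 was at 0.853. Sfrp2 thus had the highest mean level per kilobase of these genes on land, and Lef1 the highest in untreated space with gravity.

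In space with gravity against land, 14.0% of the 11558 genes tested passed an adjusted p of 0.05 in edgeR's quasi-likelihood test, 7.22% as higher and 6.74% as lower, and 31.9% had an unadjusted p under 0.05. In space without gravity against land, 5.25% passed, 2.81% as higher and 2.44% as lower, and 24.7% had an unadjusted p under 0.05. Of the 7 tested members, 6 had negative fitted values and 1, Axin2, a positive value in each comparison. The 2 comparisons share the land libraries. The CPM ranges of the 17 deeper libraries did not overlap for 2 of the 7 members in space with gravity against land, Nkd2 and Dkk3, both lower in flown cells, while 3.24% of all genes tested were lower and 4.59% higher without overlap. In space without gravity against land the ranges of all 7 overlapped, while 1.68% of all genes tested were lower and 1.23% higher without overlap. The choice of the members used these comparisons, so nothing is read from their counts.

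**Figure D2:**
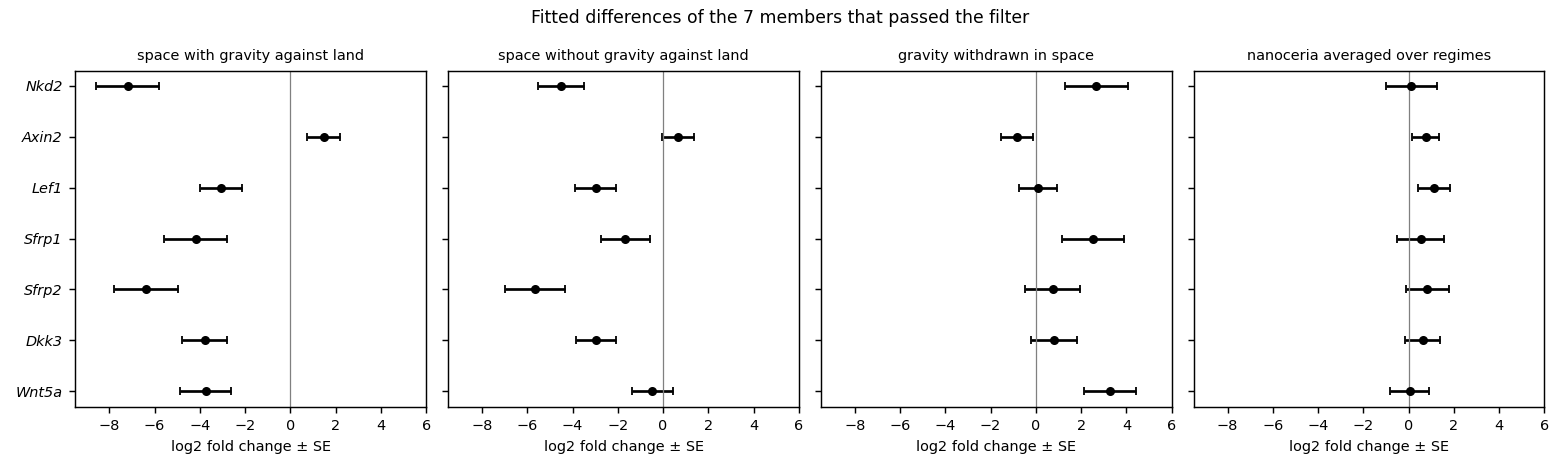
Fitted log2 fold change of each tested member with its standard error in the 4 comparisons. Of the 7 members, 6 lie below 0 in both comparisons with land, from -0.47 to -7.19, and the values for gravity withdrawn in space and for nanoceria have errors up to 1.41.

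The 2 land libraries numbered 3, 1 untreated and 1 with nanoceria, stood apart in several of these genes. Together they held 92.0% of the Nkd2 counts on land, 76.3% for Sfrp2, 74.1% for Sfrp1, 72.9% for Dkk3, 82.0% for Wnt5a and 93.1% for Dkk2, against 57.6% for Tcf7 and 29.4% for Axin2. For Wnt5a the untreated library held 37 counts and the treated one 4, and for Dkk2 they held 1 and 26. Such shares over all genes were not computed. Without these 2 libraries, a setting chosen after their values were seen, the log2 fold change in space with gravity against land was -3.89 for Nkd2, -0.80 for Lef1, -2.19 for Sfrp1, -3.99 for Sfrp2, -1.79 for Wnt5a and 1.40 for Axin2. In space without gravity against land it was -1.20 for Nkd2, -0.74 for Lef1, -3.26 for Sfrp2 and 0.56 for Axin2, while Sfrp1 and Wnt5a turned to 0.33 and 1.47. Dkk3 no longer passed the filter there. The smaller fitted differences for Nkd2, Lef1 and Sfrp2 kept their sign in both comparisons.

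Some of the fibroblast markers, but not all, were high in these libraries. The summed level of 8 fibroblast markers was 1275 CPM in replicate 3 of untreated land and 2282 CPM in replicate 3 of land with nanoceria, against 41.8 to 469 CPM in the 15 other deeper libraries. The sum came mainly from Col1a1, at 877 and 1750 CPM against 2.47 to 123 CPM elsewhere, and from Col3a1, at 349 and 489 CPM against 34.3 to 406 CPM. Lum was at 0 in all 17 libraries, Dcn was at 0.986 and 0.325 CPM in the 2 libraries against 0.797 to 10.2 CPM elsewhere, and Dpt was at 12.8 and 0 CPM. Pdgfrb was at 5.59 and 30.9 CPM, above its 0.677 to 3.06 CPM elsewhere. By regime the sum ranged from 133 to 2282 CPM on land, from 41.8 to 275 CPM in space with gravity and from 83.8 to 469 CPM in space without gravity. Of the 6 fibroblast markers tested, 1, Col1a1, fell in space with gravity against land (-4.82 ± 1.14, edgeR adjusted p = 0.0140), where 14.0% of all genes tested were called. All 6 had negative values. The adipocyte sum was 110 CPM in the land nanoceria library and at most 32.2 CPM in the 15 others, with Adipoq at 0 in all 17, and the proliferation sum was 1133 CPM in the untreated land library against at most 772 CPM in those 15. Of the other marker genes, the adipocyte genes Cebpa and Lpl and the proliferation gene Rrm2 fell in space with gravity against land, and in space without gravity against land Cebpa fell and the mitotic checkpoint gene Bub1 rose. None of the 9 myoblast markers tested was called in any comparison. The myoblast sum of both libraries, 1142 and 1406 CPM, was inside the range of the other 15, from 495 to 4576 CPM, but Ncam1 alone, at 328 to 4338 CPM in the 17, made up most of it. The sum of 12 myotube markers was 135 CPM in replicate 1 of untreated land and 3.01 to 21.2 CPM in the 16 other deeper libraries. The part of these markers in the levels of the Wnt genes was not tested. In such bulk samples, fewer cells of a type and less RNA per cell cannot be told apart.

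**Figure D3:**
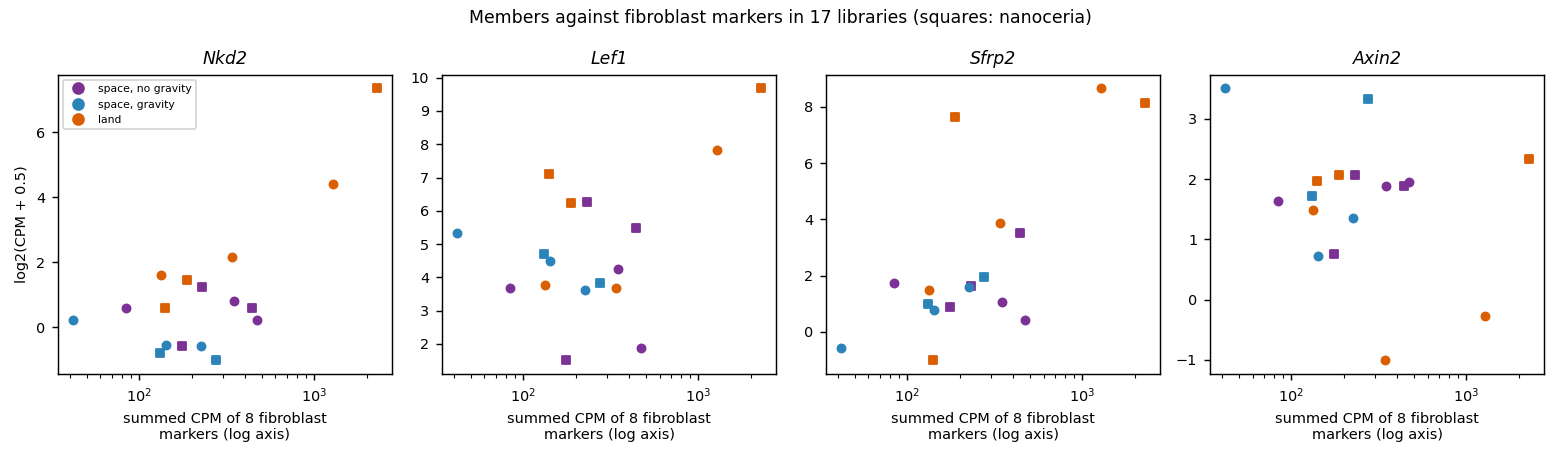
Log2(CPM + 0.5) of Nkd2, Lef1, Sfrp2 and Axin2 against the summed CPM of 8 fibroblast markers on a log axis, in 17 libraries, with colour for regime, circles for untreated cells and squares for nanoceria. The 2 land libraries at 1275 and 2282 CPM have the highest Nkd2 and Lef1 values, but their Axin2 values, 0.329 and 4.56 CPM, lie inside the range of the other libraries.

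Withdrawal of gravity within the flight compares libraries of a single run, and no gene of 11558 passed the adjusted threshold in edgeR's test, while 676 (5.85%) had an unadjusted p under 0.05 and 11 passed in DESeq2. None of the 7 members passed. The libraries with gravity also served in the comparison with land that was known when the members were chosen. The member values and p-values here are thus not independent of that choice, and nothing is read from their signs. The largest fitted value was that of Wnt5a, 3.28 ± 1.13 higher without gravity (edgeR adjusted p = 0.655, unadjusted p = 0.00653). Nkd2 was 2.68 ± 1.41 higher (adjusted p = 0.856 in edgeR) and Sfrp1 2.52 ± 1.37 higher (adjusted p = 0.891 in edgeR), on 0 to 17 counts per flown library. The values were 0.74 ± 1.21 for Sfrp2, 0.80 ± 1.01 for Dkk3, 0.10 ± 0.86 for Lef1 and -0.83 ± 0.70 for Axin2. Several of these rest on single libraries. Without replicate 1 of space without gravity and nanoceria, Sfrp1 was at 0.062 and Sfrp2 at 0.052, and without replicate 3 of untreated space without gravity Sfrp1 was at 1.21. Dkk3 was at 0.19 without replicate 2 of untreated space without gravity, and Axin2 at -0.080 without replicate 3 of untreated space with gravity. For all 7, the ranges with and without gravity overlapped, while 0.277% of all genes tested were higher and 0.381% lower without overlap.

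Nanoceria, averaged over the 3 regimes, gave no gene past the adjusted threshold in edgeR's test either, with 756 genes (6.54%) at an unadjusted p under 0.05 and 1 gene past the threshold in DESeq2. All 7 members had positive fitted values, although that of Nkd2 was -0.0061 without edgeR's prior count, and none passed. The median over all genes was -0.03. With single libraries left out, the sign turned in 5 of 18 cases for Nkd2, 8 for Wnt5a, 2 for Sfrp1 and 1 for Dkk3. The land libraries here, among them replicate 3 with nanoceria, also served in the comparisons known when the members were chosen. Nothing is therefore read from the shared sign. Their ranges all overlapped, and 0.0173% of all genes tested were lower without overlap. Lef1 was 1.11 ± 0.70 higher with nanoceria (edgeR adjusted p = 0.801) and Axin2 0.75 ± 0.58 higher (edgeR adjusted p = 0.841). The other 5 lay between 0.06 ± 0.86 for Wnt5a and 0.83 ± 0.94 for Sfrp2. A test of whether the nanoceria effect differed between regimes called 0 of 11558 genes in edgeR, with 710 at an unadjusted p under 0.05. Wnt5a had the smallest value among the members (edgeR adjusted p = 0.799, unadjusted p = 0.0263), so the separation of its treated and untreated libraries in space without gravity did not pass as a difference between regimes.

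The rest of the pathway was read from a list of 106 other Wnt genes, of which 63 passed the filter. This list leaves out the members, which were chosen with the land comparisons known. Its counts and medians against land thus describe a reduced list and do not measure the whole pathway against all genes. In space with gravity against land 3 of the 63 rose and 2 fell, where 14.0% of all genes tested were called, and the median log2 fold change was -0.40, with 24 positive and 39 negative values, against a median of -0.04 over all genes. In space without gravity against land 1 rose and 2 fell, where 5.25% of all genes tested were called, with a median of -0.47 against -0.02 over all genes. Gravity withdrawn in space and nanoceria called none of the 63, with medians of -0.06 and 0.16. Of 20 ligands 6 were tested, and of 24 receptors and co-receptors 14 were. Among 14 other genes listed as antagonists outside the cell or at its surface, the secreted Igfbp4, the membrane protein Apcdd1 and the Dickkopf receptor Kremen1 passed the filter, and none of the 3 was called in any comparison. Of 15 other feedback genes and targets 9 were tested, with Apcdd1 listed here as well. Rnf43, Sp5, Lgr5, Dkk1, Notum and Bambi, several of them commonly used readouts of canonical signalling, were below the filter.

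The largest called change in the pathway list was a rise of Tbx3, a T-box repressor and known Wnt target. It lay between 3.33 and 56.2 CPM on land, between 110 and 507 CPM in space with gravity and between 28.7 and 366 CPM in space without gravity. Land and space with gravity did not overlap, whereas land and space without gravity did. Its log2 fold change was 4.16 ± 0.80 in space with gravity (edgeR adjusted p = 0.00697) and 4.09 ± 0.79 in space without gravity (edgeR adjusted p = 0.0140), each against land. The call in space without gravity was lost without replicate 1 of untreated land (edgeR adjusted p = 0.0530), and the adjusted p was just above the threshold without its replicate 2.

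Ccn5, a secreted matrix protein also called Wisp2 and known as a Wnt target, was at 0.740 to 5.91 CPM on land and at 0 to 1.11 CPM in space with gravity, a change of -2.48 ± 0.59 (edgeR adjusted p = 0.0125). Vangl2, a planar polarity protein, rose by 1.85 ± 0.51 in space with gravity against land (edgeR adjusted p = 0.0237). Dvl3, a Dishevelled protein, rose by 1.95 ± 0.61 in the same comparison (edgeR adjusted p = 0.0426). Lrp5, a Wnt co-receptor, fell by 1.88 ± 0.60 in space with gravity (edgeR adjusted p = 0.0435) and by 2.07 ± 0.59 in space without gravity (edgeR adjusted p = 0.0478), each against land. With single libraries left out, the calls of Dvl3, Lrp5 and Vangl2 in space with gravity against land were lost in 9, 10 and 5 of 12 cases. That of Lrp5 in space without gravity against land was lost in 10 of 12. In the other settings these calls were lost in 3 of 8, 2 of 7, 1 of 7 and 1 of 7. The call of Ccn5 was lost without the low-count filter (edgeR adjusted p = 0.0553). The CPM ranges of land and space with gravity overlapped for Ccn5, Vangl2, Dvl3 and Lrp5.

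Tle1, a Groucho corepressor that binds TCF and LEF proteins, fell by 3.59 ± 1.02 in space without gravity against land (edgeR adjusted p = 0.0490). That value rests on replicate 1 of land with nanoceria, at 1596 CPM against a land median of 11.3 CPM. Without that library the change was -0.50 (edgeR adjusted p = 0.604), and the call was lost in 10 of 12 cases with a single library left out and with only the groups compared (edgeR adjusted p = 0.0750).

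**Figure D4:**
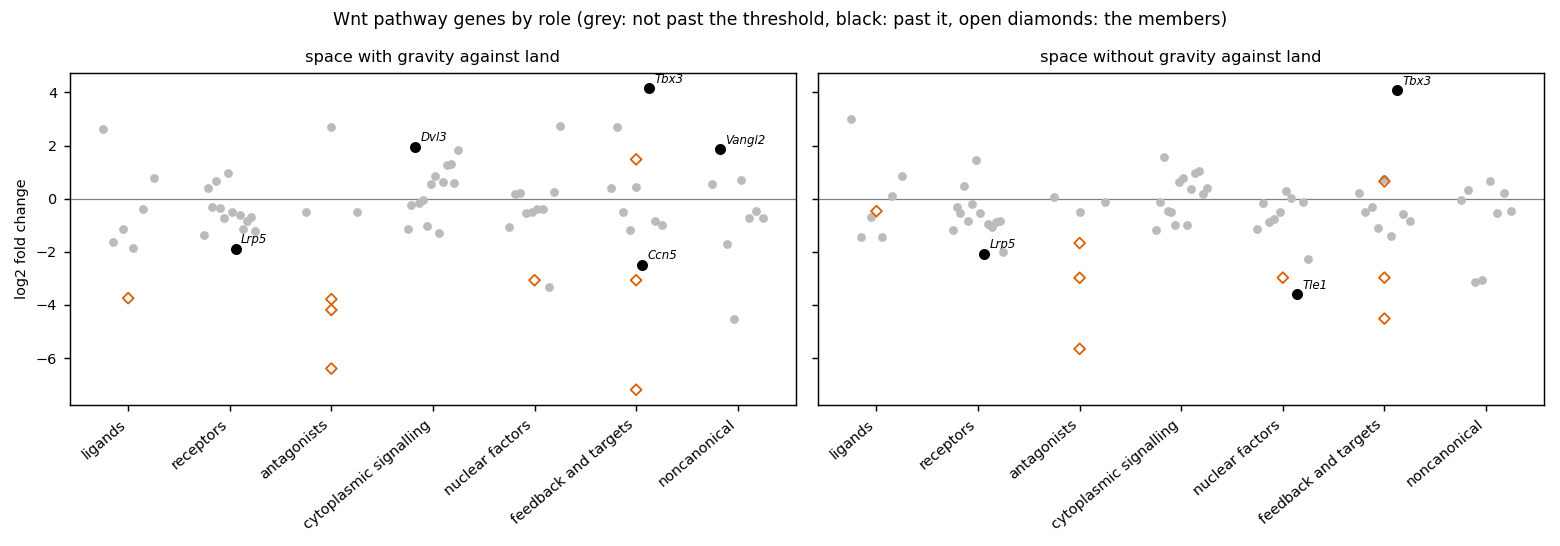
Fitted log2 fold changes of the 63 other Wnt genes tested, by role, in space with gravity and space without gravity, each against land. Called genes are in black and the tested members are open diamonds. Lef1 and Apcdd1 are each drawn under both of their roles. Tbx3, at 4.16 and 4.09, is the largest positive value, and the medians of the 63 are -0.40 and -0.47.

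Across the 17 deeper libraries the tested members other than Axin2 tended to be high in the same libraries. The Pearson r of log2 CPM was between 0.36 and 0.82 for the 15 pairs without Axin2, highest for Nkd2 with Dkk3. It was between -0.30 and 0.13 for the 6 pairs with Axin2. In Spearman rho the ranges overlapped, at 0.21 to 0.63 without Axin2 and -0.12 to 0.40 with it, highest with Lef1. These points share library depth and regime, and include the 2 land libraries described above. The members were also chosen with their differences from land known, so nothing about the genes is read from this shared pattern. The genes most like Nkd2 were Rasl11a (r = 0.93, Spearman rho = 0.91), Tubb2a (r = 0.93, rho = 0.73) and C1qtnf6 (r = 0.92, rho = 0.71). Lef1 was most like Nqo1 (r = 0.89, rho = 0.85), Lrp4 (r = 0.88, rho = 0.84) and Notch2 (r = 0.86, rho = 0.82). Sfrp2 was most like Efnb1 (r = 0.91, rho = 0.84), Hoxc8 (r = 0.88, rho = 0.70) and A4galt (r = 0.88, rho = 0.70). Sfrp1 was most like Gm2115 (r = 0.91, rho = 0.78), Angpt1 (r = 0.90, rho = 0.68) and Pcolce (r = 0.88, rho = 0.80). Dkk3 was most like Id3, Rab13 and Fam241b (r = 0.90, 0.90 and 0.89, rho = 0.69, 0.83 and 0.84). Wnt5a was most like Gprin3, Aamdc and Ech1 (r = 0.80, 0.79 and 0.77, rho = 0.80, 0.63 and 0.69). Without replicate 3 of land with nanoceria the values of r were 0.77, 0.82 and 0.79 for Dkk3 and 0.86, 0.81 and 0.77 for Wnt5a. They were 0.89, 0.83 and 0.81 for Nkd2 and 0.85, 0.83 and 0.82 for Lef1. For Sfrp2 they were 0.94, 0.85 and 0.84, and for Sfrp1 0.85, 0.84 and 0.80. All are the highest values picked from the tested genes over 17 libraries, so a high r follows in part from the ranking. The nearest genes to Axin2 were Tpi1, Gm8797 and Gmpr2 (r = 0.78, 0.76 and 0.74), so its closest likeness was lower than that of Nkd2.

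Some of these genes overlap a transcript on the other strand, which matters because the library kit is not stated to keep strand. Lef1 shares 1208 of its 8788 exon bases with Gm43352, which had 18 counts, and Axin2 shares 209 bases with Gm11670, which had 9. Sfrp2 shares 347 bases with Gm26771, which had 1 count, and Wnt5a 358 bases with Gm2670, which had none. If strand was not kept, reads in these stretches cannot be assigned to a strand.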

How the data were processed

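Polyadenylated RNA was sequenced from 18 libraries, each from its own experiment unit. The deposited files hold raw counts per Ensembl gene that the authors made, per the file headers. The submitters' processing notes name CASAVA, Trimmomatic 0.36.29, STAR, Subread, featureCounts and the build GRCm38.p6, while use of strand is not given in the sources used here. Small RNA samples were not analysed here.

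Counts were fitted with edgeR 4.0.16 in R 4.3.3: filterByExpr over the 6 groups (11558 genes), TMM scaling, robust quasi-likelihood fit of 6 group means over all 18 libraries, and Benjamini-Hochberg adjusted p under 0.05. The 4 comparisons were space with gravity against land, space without gravity against land, gravity withdrawn in space, and nanoceria over the 3 regimes. Log2 fold changes are edgeR's, with SEs from the same fit. The fit was also run on counts simulated from its own estimates of spread. That simulation held no outlying library and no effect of a separate run, so it does not bear on either.

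Members, lists and tests were chosen with earlier results of these data known. Named were all members, called genes of the Wnt list (at most 4 per direction), the 3 genes most like each tested member, and marker lists for 8 cell types or states. Few endothelial (0 of 4), epithelial (1 of 5), macrophage (2 of 5) and myotube (3 of 12) markers passed the filter, and those that did were not called, so these lists say little. Alternatives were DESeq2 1.42.0, its size factors, other filters, other library sets and leaving out each replicate. Nothing in the labels says more of how cultures were related, so p-values measure the spread between these units.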

Additional observations from a re-analysis of the deposited data

How the results depend on the processing

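No paired analysis was possible because replicate numbers follow the order of the records and pair no libraries. Counts of genes past the threshold depended on the processing. Space with gravity against land gave 1613 genes, 2691 with DESeq2 and 1072 with only the groups compared, and 459 to 1614 when single replicates were left out. Space without gravity against land gave 607 genes, 1524 with DESeq2, 1466 without the low-count filter, 387 with only the groups compared, and 82 to 703 when single replicates were left out. Gravity withdrawn in space gave 0 genes, 11 with DESeq2 and 229 without the filter, and nanoceria gave 0, 1 with DESeq2 and 214 without the filter; leaving out single replicates gave 0 to 0 genes in both. DESeq2 size factors moved the median of all genes in space with gravity against land from -0.04 to -0.39, and calls to 628 higher and 1558 lower.

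Log2 fold changes of members changed sign in these cases. Without the 2 land libraries numbered 3, Sfrp1 was 0.33 and Wnt5a 1.47 in space without gravity against land, and Nkd2 was -1.11 and Sfrp1 -0.095 for nanoceria. Lef1 was -0.030 for gravity withdrawn without the smallest library. With single replicates left out, Wnt5a in space without gravity against land ranged from -1.48 to 1.29 and Lef1 for gravity withdrawn from -0.31 to 0.41. For nanoceria the ranges were -0.25 to 1.01 for Dkk3, -1.59 to 0.60 for Nkd2, -1.10 to 1.39 for Sfrp1 and -0.75 to 1.24 for Wnt5a. The cause was not tested. Members with few counts (Nkd1, Dkk2, Tcf7) could not be compared at this depth.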
